A study of Homo sapiens with 6 samples.

Results

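The RUNX transcription factors RUNX1, RUNX2 and RUNX3 and their shared partner CBFB were followed through knockdown of the EWSR1::ATF1 fusion (EA1) in SU-CCS-1 cells. The genes were taken by symbol, and all 4 were found among the 18118 genes of the counts analysed. SU-CCS-1 is an established human clear cell sarcoma line that carries EA1, the fusion oncogene that defines this soft tissue tumor. The siRNA was left on the cells for 48 h at 5 pmol and was a negative control (siNeg1, called control here) or one of a pair against EA1, siEA1-1 (EA1 siRNA 1) and siEA1-2 (EA1 siRNA 2), and polyadenylated RNA was sequenced from 2 libraries of each. All 6 libraries thus come from the same line, and their labels differ in the siRNA and in a replicate number. The labels do not say whether the 2 libraries of a group were separate cultures, so p-values measure the spread between libraries, which may be technical. In bulk RNA, fewer cells that express a gene and less RNA of it per cell cannot be told apart.

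RUNX proteins bind DNA through the Runt domain, and CBFB (core-binding factor subunit beta), which does not contact DNA, joins each of them, raises its affinity for DNA and protects it from degradation. RUNX1 is required for blood stem cell formation, RUNX2 for osteoblast differentiation and hypertrophic cartilage, and RUNX3 for the development of T cell subsets and of proprioceptive sensory neurons. Each RUNX gene is known to be transcribed from a distal and a proximal promoter, which give proteins with different N-terminal ends, and RUNX proteins act as activators or repressors depending on their cofactors.

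RefSeq held promoter sequence (GRCh38.p14) for the 3 RUNX genes. The windows ran from 250 bases before to 50 bases after an annotated start site, with 1 window for RUNX1 and an upstream and a downstream window each for RUNX2 and RUNX3. Printed here, 5′ to 3′ on the gene's strand and up to 30 bases after the start site, are both windows of RUNX2, the member that changed most, and the upstream window of RUNX3, the member that changed in the opposite direction. Capitals mark TGTGGT, the core letters of the RUNX motif (ACCACA on the other strand), TGAGTCA, the AP1 motif, and TGANNTCA, which has the half-sites of the ATF/CREB motif TGACGTCA with any bases between them.

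RUNX2, upstream start, chr6:45328080-45328359, plus strand: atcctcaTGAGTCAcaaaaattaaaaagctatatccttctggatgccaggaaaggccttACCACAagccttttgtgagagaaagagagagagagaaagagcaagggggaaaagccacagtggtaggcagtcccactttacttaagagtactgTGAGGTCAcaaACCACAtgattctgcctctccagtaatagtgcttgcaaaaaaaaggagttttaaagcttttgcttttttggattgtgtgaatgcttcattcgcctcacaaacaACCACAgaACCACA

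RUNX2, downstream start, chr6:45422025-45422304, plus strand: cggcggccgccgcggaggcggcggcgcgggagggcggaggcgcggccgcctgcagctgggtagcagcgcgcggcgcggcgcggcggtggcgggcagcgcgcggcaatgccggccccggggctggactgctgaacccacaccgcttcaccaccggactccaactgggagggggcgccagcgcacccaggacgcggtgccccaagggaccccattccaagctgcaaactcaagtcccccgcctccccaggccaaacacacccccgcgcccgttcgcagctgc

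RUNX3, upstream start, chr1:24964981-24965260, minus strand: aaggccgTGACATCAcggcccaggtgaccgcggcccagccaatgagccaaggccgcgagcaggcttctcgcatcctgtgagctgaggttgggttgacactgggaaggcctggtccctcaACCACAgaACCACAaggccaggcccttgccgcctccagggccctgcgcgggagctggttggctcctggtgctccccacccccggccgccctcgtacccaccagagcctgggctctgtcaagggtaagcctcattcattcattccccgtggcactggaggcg

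The upstream RUNX2 window held 4 copies of ACCACA, whose first bases lay at -191, -87, 16 and 24 relative to the start site, counted as 0. Of 35116 RefSeq windows of the same length, 13.1% held TGTGGT on either strand at least once, and 5 windows, this one among them, held 4 or more copies. TGAGTCA began at -243 in the same window and was present in 4.95% of all windows. TGAGGTCA, a match to TGANNTCA, began at -98, and TGANNTCA was present in 11.5% of all windows. The upstream RUNX3 window held 2 copies of ACCACA, at -131 and -123, a number that 1.31% of all windows reached or passed, and TGACATCA, a match to TGANNTCA, at -243. In both upstream windows 2 copies of ACCACA stood with the 2 bases ga between them. By contrast, none of these 3 motifs was found in the downstream windows of RUNX2 and RUNX3 or in the RUNX1 window. The RUNX1 window, at chr21:34888650-34888949 on the minus strand, lies inside the gene, whose 5′ end is annotated at chr21:36004667. No window at that end was held, so the RUNX1 window is no counterpart of the upstream windows. The full ATF/CREB motif TGACGTCA, present in 1.85% of all windows, and TGACG, which lies within it and was present in 24.6%, were found in none of the 5 windows. CCAAT (34.6% of all windows) was found in the RUNX1 window and in both RUNX3 windows, and GGGCGG (45.0%), the letters bound by SP and KLF proteins, in every window but the upstream one of RUNX2. That window also had the lowest GC content, 42.7%, against 66.3% to 76.0% in the other 4 and a median of 58.7% over all windows. These are matches of letters and not measured binding, and TGANNTCA was chosen after the windows were read.

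**Figure D1:**
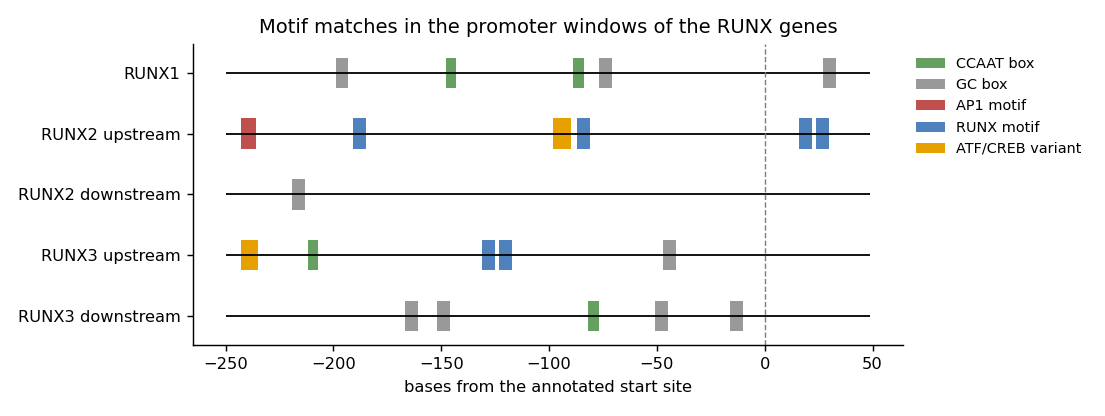
Motif matches on either strand in the 5 RefSeq promoter windows of RUNX1, RUNX2 and RUNX3, by distance in bases from the annotated start site, which is drawn at 0. The 4 TGTGGT matches of the upstream RUNX2 window and the 2 of the upstream RUNX3 window are the only ones of that motif.

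The libraries held 5942808 to 7599305 counted reads, so that 3 counts, taken as the smallest level that can be told from 0, correspond to 0.395 to 0.505 CPM (counts relative to the TMM-scaled library total). This floor covers counting error only. ATF1, which forms the 3′ part of the fusion, had 549 and 680 counts in the control libraries, 149 and 123 with siEA1-1 and 122 and 159 with siEA1-2. ATF1 was thus lower in every knockdown library, and these counts do not separate the fusion from unfused ATF1. EWSR1, the 5′ partner, was not called with either siRNA, with 1321 and 1815 counts in control and 1234 to 1409 in the knockdown libraries. The log2FC was taken as control over knockdown, as in the study, so positive values belong to genes that fell on knockdown. Genes were called at an adjusted p under 0.05 in the edgeR quasi-likelihood test, adjusted over the 14571 genes that passed the filter on low counts, and all 4 members passed that filter. Both siRNAs were compared with the same control libraries, so their values for a gene are not independent of each other.

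RUNX2 fell to 8.92% of its control level with siEA1-1 and to 11.7% with siEA1-2, RUNX1 and CBFB fell to between 49.9% and 65.2%, and RUNX3 rose 1.58-fold and 1.46-fold. With siEA1-1, 3 of the 4 members were called higher in control, against a background of 20.3% of all genes tested, and RUNX3 was called lower in control, against 19.9%. With siEA1-2 the calls fell on the same members in the same directions, against backgrounds of 18.2% and 18.5%. For calls in either direction, the backgrounds were 40.1% with siEA1-1 and 36.7% with siEA1-2, and 15.1% of all genes were called higher and 14.8% lower in control with each siRNA. Every member's control libraries lay outside the range of its 4 knockdown libraries, above it for RUNX2, RUNX1 and CBFB and below it for RUNX3. Over all genes tested, 27.3% had both control libraries above and 28.1% had both below all 4 knockdown libraries.

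RUNX2, the osteoblast and chondrocyte regulator (ENSG00000124813, chr6:45328157-45664349 on the plus strand, hg38), had 812 and 989 counts in the control libraries, 74 and 71 with siEA1-1 and 86 and 99 with siEA1-2. In CPM these were 122 and 127 in control, 10.5 and 11.7 with siEA1-1, and 15.3 and 13.9 with siEA1-2. The lowest control library thus stood several-fold above the highest knockdown library, and every knockdown library remained far above the floor of detection. The mean level was 124 ± 3.97 CPM (SD, n = 2) in control, 11.1 ± 0.826 (SD, n = 2) with siEA1-1, or 8.92% of control, and 14.6 ± 0.997 (SD, n = 2) with siEA1-2, or 11.7%. The log2FC was 3.49 (SE 0.14, edgeR adjusted p = 9.34e-08) with siEA1-1, a fold of 11.2 with a 95% confidence interval of 9.12 to 13.8. With siEA1-2 the log2FC was 3.09 (SE 0.13, edgeR adjusted p = 1.91e-07), a fold of 8.53 with an interval of 6.99 to 10.4. Averaged over both siRNAs, the log2FC was 3.29 (SE 0.10, edgeR adjusted p = 1.13e-08).

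By averaged log2FC, 119 of the 14571 genes tested, or 0.817%, had a larger one. ATF1 itself, whose counts come from the fusion and from any unfused transcript, had a log2FC of 2.03 with siEA1-1 and 1.94 with siEA1-2.

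RUNX1, the blood stem cell regulator (ENSG00000159216, chr21:34787801-36004667 on the minus strand), had 454 and 557 counts in control, 285 and 251 with siEA1-1 and 183 and 263 with siEA1-2. It stood at 68.0 and 71.6 CPM in control, at 40.5 and 41.3 with siEA1-1 and at 32.6 and 36.9 with siEA1-2, without overlap between control and knockdown. With means of 69.8 ± 2.59 CPM in control, 40.9 ± 0.569 with siEA1-1 and 34.7 ± 3.07 with siEA1-2 (SD, n = 2 each), it kept 58.6% and 49.9% of its control level. The log2FC was 0.77 with siEA1-1 (SE 0.12, edgeR adjusted p = 0.000361, fold 1.71, interval 1.42 to 2.05) and 1.00 with siEA1-2 (SE 0.12, edgeR adjusted p = 7.51e-05, fold 2.00, interval 1.66 to 2.41).

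CBFB, the partner subunit (ENSG00000067955, chr16:67028984-67101058 on the plus strand), had 561 and 686 counts in control, 401 and 335 with siEA1-1 and 244 and 332 with siEA1-2. Its levels were 84.0 and 88.2 CPM in control, 57.0 and 55.2 with siEA1-1 and 43.4 and 46.6 with siEA1-2, so that the 3 groups did not overlap. Its means were 86.1 ± 2.99, 56.1 ± 1.31 and 45.0 ± 2.24 CPM (SD, n = 2 each), and 65.2% and 52.4% of the control level remained. The log2FC was 0.62 with siEA1-1 (SE 0.11, edgeR adjusted p = 8.00e-04, fold 1.53, interval 1.30 to 1.81) and 0.93 with siEA1-2 (SE 0.11, edgeR adjusted p = 5.96e-05, fold 1.91, interval 1.62 to 2.26).

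RUNX3, the T cell and sensory neuron regulator (ENSG00000020633, chr1:24899511-24965121 on the minus strand), was the member that rose. It had 538 and 558 counts in control, 801 and 772 with siEA1-1 and 638 and 770 with siEA1-2. In CPM it stood at 80.5 and 71.7 in control, at 113.9 and 127.1 with siEA1-1 and at 113.6 and 108.1 with siEA1-2. All 4 knockdown libraries lay above both control libraries. The means were 76.1 ± 6.21 CPM in control, 121 ± 9.35 with siEA1-1 and 111 ± 3.87 with siEA1-2 (SD, n = 2 each). The log2FC was -0.66 with siEA1-1 (SE 0.11, edgeR adjusted p = 0.000529), which is 1.58-fold higher in knockdown with an interval of 1.34 to 1.87. With siEA1-2 it was -0.54 (SE 0.11, edgeR adjusted p = 0.00239), 1.46-fold higher in knockdown with an interval of 1.23 to 1.72. With this siRNA it was the smallest change of the 4 members, and without control replicate 2 the comparison with siEA1-2 came close to the threshold (log2FC -0.43, edgeR adjusted p = 0.0498).

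**Figure D2:**
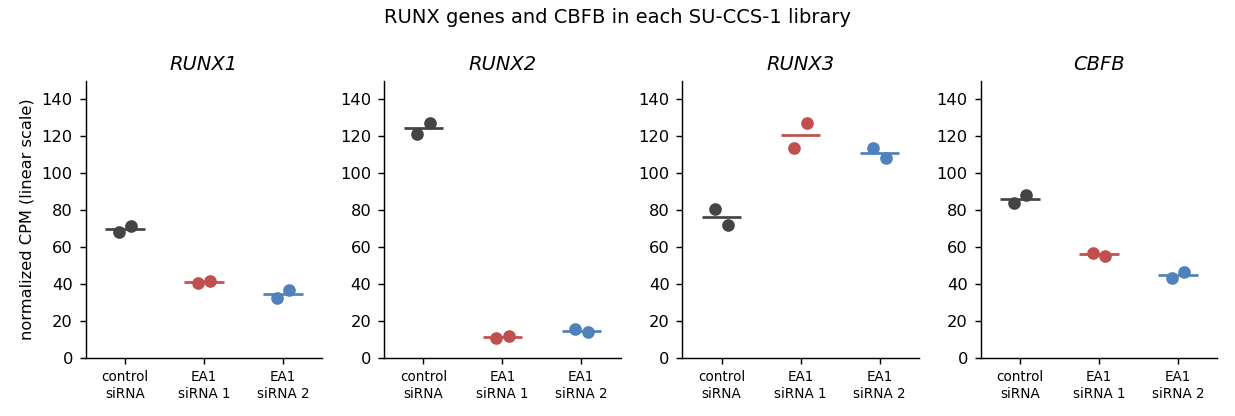
Level of RUNX1, RUNX2, RUNX3 and CBFB in each of the 6 libraries, in CPM, by siRNA. Points are libraries and horizontal lines are group means (n = 2). RUNX2 drops from 122 and 127 CPM in control to between 10.5 and 15.3 in the knockdown libraries, while RUNX3 rises from 71.7 and 80.5 to between 108.1 and 127.1.

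Averaged over both siRNAs, the log2FC was 0.89 for RUNX1 (SE 0.10, edgeR adjusted p = 3.08e-05), 0.78 for CBFB (SE 0.09, edgeR adjusted p = 3.88e-05) and -0.60 for RUNX3 (SE 0.10, edgeR adjusted p = 0.000371). All 4 members were called in the averaged comparison, 3 higher in control against a background of 22.1% and RUNX3 lower against 21.5%, or 43.5% in either direction. The median averaged log2FC over all genes tested was -0.01.

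**Figure D3:**
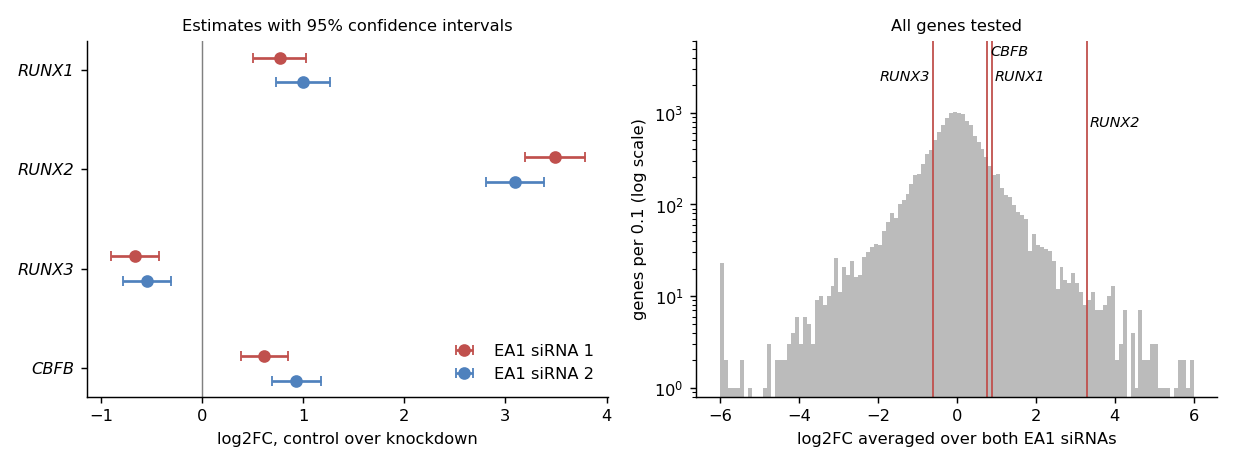
On the left, log2FC (control over knockdown) of each member with each siRNA, with 95% confidence intervals. On the right, the averaged log2FC of all 14571 genes tested as a histogram with a log-scaled count axis, where genes beyond the ends of the axis are drawn in the outermost bins and the members are marked. RUNX2, at 3.29, lies in the right tail, where 0.817% of the genes have a larger value.

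None of the 4 members was called between the siRNAs, a comparison in which 2.24% of all genes were called, 1.44% higher and 0.796% lower with siEA1-2. The fitted differences, siEA1-2 minus siEA1-1, had 95% intervals, not adjusted over genes, of 0.05 to 0.74 on the log2 scale for RUNX2, around 0.39 (edgeR adjusted p = 0.233). For CBFB the interval was -0.56 to -0.07, around -0.32 (edgeR adjusted p = 0.181). For RUNX1 it was -0.51 to 0.04, around -0.23 (edgeR adjusted p = 0.393), and for RUNX3 -0.36 to 0.12, around -0.12 (edgeR adjusted p = 0.640). RUNX2 was thus fitted higher and CBFB lower with siEA1-2, and these intervals give the differences that the 2 libraries per siRNA leave possible.

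To set the members beside each other, levels were divided by gene length. Per kilobase of all annotated exons (GENCODE release 44), the control level was 18.5 ± 0.643 CPM for CBFB, 15.5 ± 1.26 for RUNX3, 15.2 ± 0.485 for RUNX2 and 4.48 ± 0.166 for RUNX1 (SD, n = 2 each). On this length RUNX3 and RUNX2 did not differ beyond their spread, and the other neighbours did. Per kilobase of the canonical transcript the order was CBFB at 27.7 ± 0.964 CPM, RUNX2 at 22.4 ± 0.717, RUNX3 at 17.8 ± 1.46 and RUNX1 at 11.7 ± 0.434 (SD, n = 2 each), with no overlap between neighbours. Per kilobase of all annotated exons, CBFB lay above 84.3% of 14532 genes with a length, RUNX3 above 80.2%, RUNX2 above 79.7% and RUNX1 above 46.7%. After knockdown the order changed on the same length. RUNX3 led with 24.5 ± 1.90 CPM per kilobase with siEA1-1 and 22.5 ± 0.786 with siEA1-2, CBFB followed with 12.1 ± 0.283 and 9.68 ± 0.482, then RUNX1 with 2.63 ± 0.0365 and 2.23 ± 0.197, and RUNX2 was last with 1.36 ± 0.101 and 1.78 ± 0.122.

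The make-up of the RUNX transcripts changed accordingly. Of the summed level of the 3 RUNX genes per kilobase of exon, RUNX2 made up 41.7% and 44.7% in the control libraries, 4.75% and 4.77% with siEA1-1 and 6.91% and 6.52% with siEA1-2. RUNX3 made up 46.0% and 42.0% in control, 85.6% and 86.4% with siEA1-1 and 85.4% and 84.4% with siEA1-2. RUNX1 made up 12.3% and 13.3% in control and between 7.74% and 9.63% in the knockdown libraries. These shares depend on the length used, since the annotated exons of RUNX1 span 15574 bases in all but 5971 bases in its canonical transcript. Per kilobase of the canonical transcripts, RUNX2 made up 42.0% and 44.3% in control, above RUNX3 at 36.2% and 32.5%, and fell to between 5.37% and 7.93% in knockdown, where RUNX3 made up 74.5% to 76.7%. By either length RUNX3 thus came to make up most of the RUNX level in all 4 knockdown libraries and in neither control library.

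The summed RUNX level was lower in every knockdown library than in both control libraries. The summed RUNX level per kilobase of exon was 35.6 and 34.7 CPM in control, 27.0 and 29.9 with siEA1-1 and 27.0 and 26.0 with siEA1-2. Summed without division by length, the 3 genes gave 270.0 and 270.5 CPM in control and 158.9 to 180.2 CPM in the knockdown libraries. The ratio of CBFB to the summed RUNX level, both per kilobase of exon, was 0.508 and 0.546 in control, 0.454 and 0.396 with siEA1-1 and 0.345 and 0.385 with siEA1-2. Per kilobase of the canonical transcripts, 1 library of siEA1-1 stood at 0.519, within the control values of 0.518 and 0.549, so for that siRNA the separation depended on the length.

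**Figure D4:**
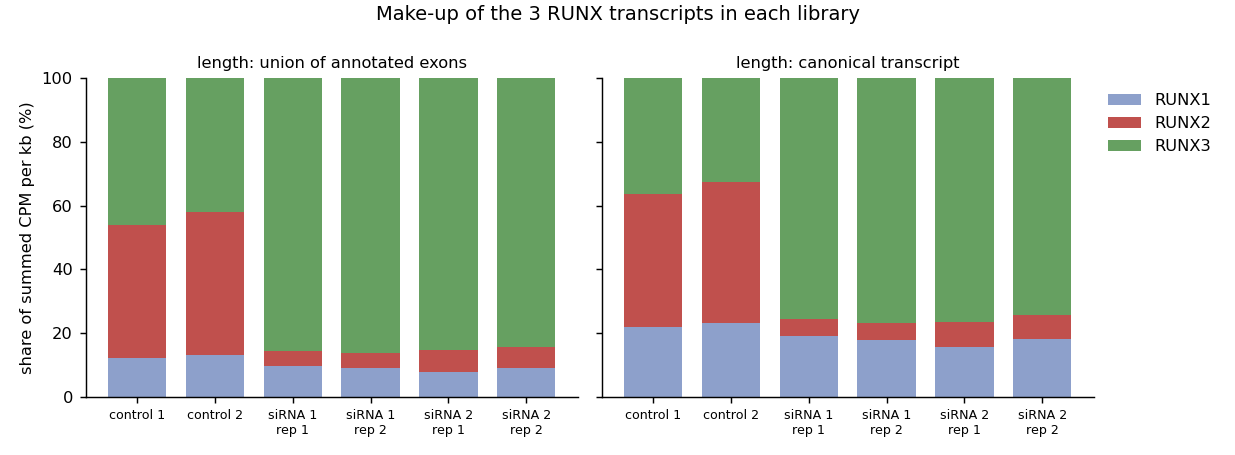
Share of RUNX1, RUNX2 and RUNX3 in their summed level (percent of CPM per kilobase) in each library, per kilobase of all annotated exons on the left and of the canonical transcript on the right. RUNX3 makes up 84.4% to 86.4% on the left and 74.5% to 76.7% on the right in the knockdown libraries.

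The counts per gene do not separate the upstream from the downstream start, so the starts to which the changes belong are unknown here. Other annotated genes lie over the members, but none shares exon bases with them. Within the RUNX2 locus, SUPT3H, a transcription cofactor gene on the opposite strand, had 63 and 60 counts in control, 68 and 49 with siEA1-1 and 33 and 59 with siEA1-2, and it was not called with either siRNA (log2FC -0.06 and 0.26, edgeR adjusted p = 0.893 and 0.514). A long noncoding RNA on the opposite strand, ENSG00000271857, had 26 and 14 counts in control, none in both libraries of siEA1-1 and 0 and 2 with siEA1-2. It reached the minimum count in the control libraries alone, so the filter kept it through the group where it is high. It was called higher in control with each siRNA (edgeR adjusted p = 0.00210 and 0.00743). How strand was used in the counting is not given in the sources used here. MIR6731, within RUNX3, had 0 to 6 counts. Of the distinct stretches of 50 bases, the read length, in the annotated transcripts, 90 of 15794 (0.57%) of RUNX1 also occurred in transcripts of other genes. None did for RUNX2, RUNX3 or CBFB, and the 4 members shared none with each other.

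The genes most like each member over the 6 libraries were taken by the root mean square distance between log2 CPM profiles, each centred on its mean. Chosen as the nearest of all genes tested, they lie under the median distance by that choice, and likeness is no statement on function. For RUNX2 these were PDE8B, a cyclic AMP phosphodiesterase (distance 0.155), CTH, the cystathionine gamma-lyase (0.188), and MAFK, a small MAF transcription factor (0.189), against a median distance of 1.57 over all genes. PDE8B went from 40.0 and 41.9 CPM in control to between 3.37 and 5.34 in the knockdown libraries. For RUNX1 they were CLK1, a splicing factor kinase (0.0298), USP36, a nucleolar deubiquitinase (0.0321), and ARHGEF26 (0.0462), for CBFB B4GALT2 (0.0455), ZFAS1 (0.0461) and TUBGCP4 (0.0547), and for RUNX3 TTC8, a component of the BBSome (0.0152), PIP4K2B (0.0347) and ANKS1A (0.0364). The median distances over all genes were 0.516, 0.484 and 0.405.

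The genes that act with or on RUNX proteins were described as lists, by counts of calls, to be read beside the 15.1% of all genes called higher and the 14.8% called lower in control with each siRNA and the median averaged log2FC of -0.01. Among 19 tested corepressors and repressive cofactors, 3 were called higher and 4 lower in control with each siRNA, and the median averaged log2FC was -0.06. Called higher were HDAC7, a histone deacetylase (log2FC 1.03 with siEA1-1 and 1.09 with siEA1-2), TLE3, a Groucho corepressor (1.18 and 0.80), and SUV39H1, a histone H3 lysine methyltransferase (1.08 and 0.56). Those called lower included the Notch effectors HEY1 (-1.50 and -1.41) and HES1 (-1.23 and -1.19) and CBFA2T2 of the ETO family (-0.48 and -0.39). TLE3 went from 86.5 ± 7.25 CPM in control to 38.1 ± 4.69 with siEA1-1 and 49.8 ± 2.90 with siEA1-2 (SD, n = 2 each).

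Among 29 tested coactivators and DNA-binding partners, 5 were called higher and 5 lower with each siRNA, and the median averaged log2FC was 0.18. ETS2, an ETS factor, had 65.5 ± 2.82 CPM in control, 12.2 ± 0.248 with siEA1-1 and 12.7 ± 3.65 with siEA1-2 (SD, n = 2 each), with a log2FC of 2.42 and 2.35. ETS1, the related factor that binds DNA together with RUNX1, moved the other way, from 284 ± 1.58 CPM in control to 426 ± 28.4 and 603 ± 137 (log2FC -0.58 and -1.08). The AP1 subunit FOS stood at 66.5 and 68.7 CPM in control, 28.6 and 33.3 with siEA1-1 and 12.1 and 14.6 with siEA1-2. FOS was also called between the siRNAs. JUN, likewise called between them, was not called with siEA1-1 (91 and 85 counts in control, 86 and 139 with the siRNA, log2FC -0.51, edgeR adjusted p = 0.215) and was called higher in control than with siEA1-2 (24 and 50 counts, log2FC 1.09, edgeR adjusted p = 0.0282). JUNB (log2FC 0.79 and 1.44) and CEBPB (1.43 and 0.92) were called higher in control. CEBPD (-2.21 and -1.41), SMAD3 of the TGF-beta pathway (-1.09 and -1.11) and WWTR1, the Hippo pathway coactivator TAZ (-1.22 and -0.95), were called lower. EP300, a histone acetyltransferase, had 177 and 191 CPM in control and 202 to 215 CPM in the knockdown libraries and was not called with either siRNA.

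Of 27 tested kinases, ubiquitin ligases and inhibitors that act on RUNX proteins, 8 were called higher and 3 lower with each siRNA, with a median averaged log2FC of 0.08. Among those called higher with each siRNA, SRC, a tyrosine kinase, had the largest averaged fall on knockdown (log2FC 1.11 and 1.71). Its counts were low, 52 and 65 in control, 27 and 22 with siEA1-1 and 8 and 24 with siEA1-2 (edgeR adjusted p = 0.0368 and 0.00610). Next by averaged fall were CDK1, the mitotic kinase (1.55 and 1.23), FBXW7, an F-box protein (1.28 and 0.83), and CDC20, an activator of the anaphase-promoting complex (1.03 and 0.65). CDK2, the S phase kinase, went the opposite way, from 497 ± 24.0 CPM in control to 1011 ± 69.8 and 1234 ± 197 (SD, n = 2 each, log2FC -1.03 and -1.31), and so did HIPK2 (-0.62 and -0.63). Genes lying over the list genes were not looked up, and how strand was used in the counting is unknown. Whether reads of an overlapping gene add to the CDK2 counts was thus not tested. ZNF521, a zinc finger protein known to antagonise RUNX2, had 2 and 0 counts in control, 35 and 31 with siEA1-1 and 19 and 12 with siEA1-2. Its control libraries were under the floor of detection, so it passed the filter through the knockdown libraries, and it was called lower in control with each siRNA (edgeR adjusted p = 0.000452 and 0.00400).

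Few of the skeletal genes known to lie downstream of RUNX2 were measurable. Of 24 listed, 9 were in the counts and 7 passed the filter, and 3 were called higher and 1 lower in control with each siRNA, with a median averaged log2FC of -0.02. Of the 3 called higher, PTHLH and FGF18 reached the minimum count in the control libraries alone, so the filter kept them through the group where they are high and the count of higher calls rests on them. PTHLH, the parathyroid hormone-like hormone, had 30 and 34 counts in control, 3 and 7 with siEA1-1 and 2 and 2 with siEA1-2. FGF18, a growth factor for cartilage and bone, had 37 and 15 counts in control, 3 and 5 with siEA1-1 and 1 and 4 with siEA1-2. VEGFA, the angiogenic factor, had a log2FC of 0.76 with each siRNA. GALNT3, a glycosyltransferase that protects FGF23 from cleavage, rose on knockdown from 11.9 ± 0.775 CPM to 104 ± 11.7 and 148 ± 35.2 (SD, n = 2 each, log2FC -3.12 and -3.63). SPARC (osteonectin), a bone matrix protein, had 372 CPM in each control library and 345 to 424 CPM in the knockdown libraries and was not called with either siRNA.

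Of 27 listed blood-lineage genes known to lie downstream of RUNX1 and RUNX3, 12 were in the counts and 10 passed the filter. Higher in control with each siRNA were 2 of them, PRKCQ, the protein kinase C theta of T cells (13.8 ± 0.188 CPM in control, 2.18 ± 0.873 and 2.69 ± 0.227 in knockdown, log2FC 2.67 and 2.35), and CDKN1A, the cell cycle inhibitor p21 (0.87 and 0.85). Lower were 3, the hyaluronan receptor CD44 (-1.22 and -1.41), the transcription factor MYB (-0.41 and -0.77) and the non-muscle myosin MYH10 (-0.51 and -0.65). CD44 was abundant, with 1006 ± 95.7 CPM in control, 2343 ± 36.5 with siEA1-1 and 2675 ± 548 with siEA1-2 (SD, n = 2 each). The median averaged log2FC of this list was -0.21.

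**Figure D5:**
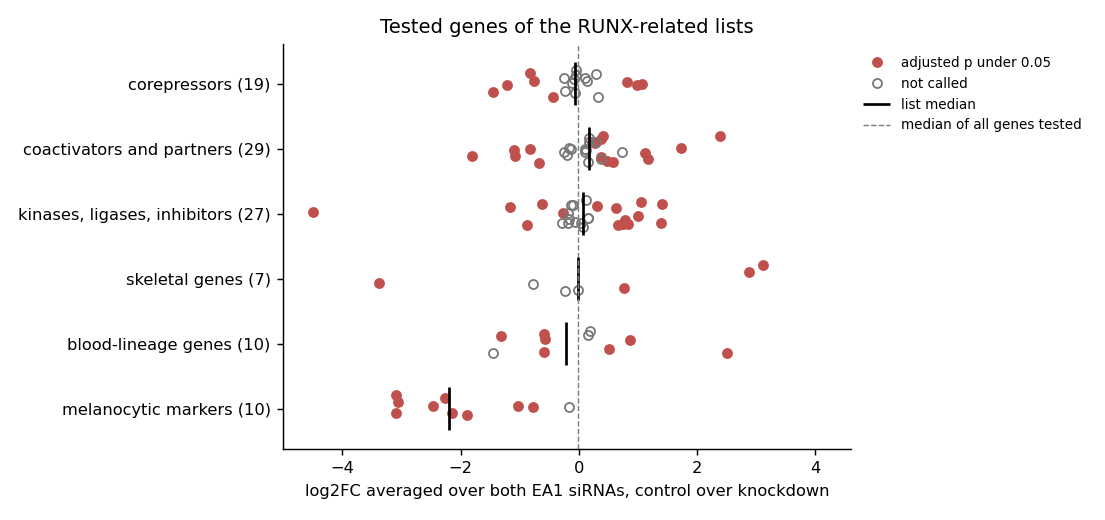
Averaged log2FC (control over knockdown) of the tested genes of the 5 lists of RUNX cofactors, regulators and downstream genes, and of the melanocytic markers. Points are genes, filled where the adjusted p is under 0.05, bars are list medians and the dashed line is the median of all genes tested, -0.01. Each of the 5 lists holds called genes on both sides of that line, while 9 of the 10 markers were called lower in control with siEA1-1.

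Markers of cell types were read beside the members. All 10 listed clear cell sarcoma and melanocytic markers were tested, and their summed level rose from 2999 to 3194 CPM in the control libraries to 8764 to 8790 CPM with siEA1-1 and 7729 to 12271 CPM with siEA1-2. Of these, 9 with siEA1-1 and 8 with siEA1-2 were called lower in control, and SOX10, a neural crest factor, was not called. This shift went together with the fall of RUNX2 and the rise of RUNX3, and its part in the members' changes was not tested. Of 10 listed blood markers only CD68 was in the counts, at 0.898 CPM or less in every library. Of 10 listed bone and cartilage markers 3 were in the counts (ACAN, COL2A1 and SOX9), with a sum of 6.89 to 7.20 CPM in control, 8.82 to 20.3 CPM with siEA1-1 and 19.8 to 21.5 CPM with siEA1-2. ACAN, the cartilage proteoglycan aggrecan, was called lower in control with each siRNA, with 8 and 13 counts in control against 28 to 82 in the knockdown libraries. With 8 counts in a control library, under the minimum of 10, it passed the filter through the knockdown libraries, where it is high.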

How the data were processed

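RNA-seq of the 6 SU-CCS-1 libraries was used, with groups and replicate numbers taken from the sample labels, which list 2 EA1 siRNAs where the methods of the study name 1. The libraries were stranded mRNA libraries read as pairs of 50 bases. The authors aligned reads to hg38 with BWA-MEM, an aligner without a splicing model, and deposited raw counts per gene from featureCounts 1.6.3, without normalization. Annotation and strand setting are not given in the sources used here.

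edgeR 4.0.16 in R 4.3.3 was run on the counts, with filterByExpr (minimum count 10, minimum total 15; 14571 of 18118 genes kept), TMM scaling and the quasi-likelihood test over 3 groups, with Benjamini-Hochberg adjustment over the genes tested. Standard errors were derived from the F statistic, and the common biological coefficient of variation was 0.109. The fit was tested on simulated data.

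The members and gene lists were chosen with earlier results of these data known. Named were the members, genes lying over them, the fusion partners, per list and direction up to 4 genes with the largest averaged log2FC among those called with each siRNA without overlap of libraries, and the 3 genes nearest to each member. EP300 and SPARC were named after their values were seen, as examples that were not called, and SOX10, CD68, COL2A1, SOX9 and JUN, which complete a count. A gene of the corepressor list that the rule names is not reported here. Alternatives were no filter, a minimum of 10 counts in every library, RLE factors, DESeq2 1.42.0, a replicate block, only the 4 libraries compared, and each library left out.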

Additional observations from a re-analysis of the deposited data

How the results depend on the processing

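Each of the 16 member results was recomputed under up to 12 alternatives, and all 188 values kept their direction and their side of the threshold. With each library left out in turn, the log2FC ranged from 3.41 to 3.58 (siEA1-1) and 3.05 to 3.18 (siEA1-2) for RUNX2, from 0.75 to 0.81 and 0.94 to 1.13 for RUNX1, from 0.61 to 0.65 and 0.91 to 1.02 for CBFB, and from -0.75 to -0.55 and -0.63 to -0.43 for RUNX3. In the comparisons of control with knockdown, the highest adjusted p over the alternatives was 0.0498, for RUNX3 with siEA1-2 without control replicate 2.

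The counts of genes called against control, on which the background shares rest, ranged over the alternatives from 4062 to 6484 for siEA1-1 (5850 as reported), from 3746 to 5936 for siEA1-2 (5352) and from 4584 to 6927 for their average (6344), each within 1.5 times the reported count and each highest with the replicate number as a block. The count of genes called between the siRNAs, 326, moved by more than 1.5 times. It was 176 with only the 4 libraries compared and 33 to 788 with a library left out, lowest without siEA1-1 replicate 2 and highest without siEA1-2 replicate 2. The cause was not tested. With the replicate number as a block it was 853. Deviations from the group means of libraries with the same number correlated at 0.130 to 0.199 across genes. With 2 numbers and no label of a shared batch, whether libraries with the same number share one could not be determined. The block changed no member call. The comparison with the average of both siRNAs has no fit on 4 libraries. With 2 libraries a group, leaving out 1 leaves a lone library that is assumed to vary like the others.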
